A study of Mus musculus with 16 samples.

Results

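The miR-297, miR-466, miR-467 and miR-669 names are a large set of related mouse miRNAs, most of which come from a run of hairpins inside the gene Sfmbt2. They were chosen by name alone, as every miRNA in the count table called mmu-miR-297, mmu-miR-466, mmu-miR-467 or mmu-miR-669 with no further digit. The rule found 80 of 1978 names: 6 of miR-297, 31 of miR-466, 13 of miR-467 and 30 of miR-669. By arm of the hairpin, 33 are 5p names, 35 are 3p names and 12 carry no arm. Of the 80 names, 63 had at least 1 count and 17 had 0 counts in all 16 libraries. A library of the depths used here allows a name with 0 counts a level of up to 0.269 counts per 1 M in the deepest library and 3.61 in the shallowest (3 counts, counting error only). Names with the same counts in every library were taken as 1, which left 49 distinct members.

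The libraries are small RNA sequencing of mouse forebrain neurons, taken around birth, grown in primary culture and transduced with a lentiviral vector. The 4 groups hold 4 libraries each. Empty_Vector received the vector without a hairpin, shRNA received a short hairpin RNA, and shRNA_2bp and shRNA_5bp received that hairpin with 2 or 5 point mutations. All groups share the lentiviral transduction. The strain, the hairpin's target, the promoter that drives it and the days in culture are not given in the sources used here. Whether replicate libraries stem from different cultures or animals is not stated in the labels, so p-values measure only the spread between these libraries, which may be technical.

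In the mouse, the cluster is transcribed from the paternal copy of Sfmbt2, a Polycomb-related gene that is imprinted in the placenta and other extraembryonic tissue. Its hairpins arose by repeated duplication and are rich in alternating U and G on the 5p arm and A and C on the 3p arm, and they are best known from trophoblast and embryonic stem cells. Because copies are nearly identical, a short read can belong to many hairpins, and a count may be shared or repeated between names.

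RefSeq (GRCm38.p6) places 82 hairpin genes with these names. Of them, 72 lie in intron 10 of Sfmbt2 (transcript Sfmbt2-201, 23 exons, plus strand), between chr2:10466663 and chr2:10518279, a span of 51.6 kb. These are 5 miR-297, 24 miR-466, 14 miR-467 and 29 miR-669 hairpins. The other 10 lie elsewhere, as 1 miR-297, 5 miR-466, 3 miR-467 and 1 miR-669 hairpin. The family name and the cluster are therefore not the same set. By hairpin name, 64 names (37 distinct members) come from Sfmbt2 only, 5 names (3 distinct) from both and 9 names (8 distinct) from elsewhere only. The 2 miR-466a names matched no hairpin gene by name. A hairpin called Mir466, without a letter, lies in the intron (chr2:10507918-10507990), and no name was matched to it. Copy number within the intron differs widely, with 12 hairpins of Mir669a, 10 of Mir467a and 8 of Mir466b, but 1 each of Mir669c (chr2:10509296-10509404), Mir467b (chr2:10481248-10481320) and Mir467c (chr2:10473931-10474027). The hairpin of miR-466i is at chr13:17747473-17747593 on the plus strand, within the span of Cdk13, which is on the minus strand, and overlaps no exon.

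Mature sequences were matched in RefSeq for 8 of the 80 names, all with hairpins outside Sfmbt2. They are shown because they carry the repeat character of the family. The capitals mark the seed, bases 2 to 8, which pairs with target RNAs.

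miR-466i-3p: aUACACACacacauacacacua

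miR-466j: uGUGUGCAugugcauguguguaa

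miR-466k: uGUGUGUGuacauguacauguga

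miR-466q: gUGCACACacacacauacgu

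miR-467f: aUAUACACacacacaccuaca

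miR-467g: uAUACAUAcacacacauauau

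miR-467h: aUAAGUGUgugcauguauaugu

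miR-669n: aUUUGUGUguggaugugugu

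No pair of the 8 shares a seed: they hold 8 different ones. MiR-466i-3p lies at chr13:17747552-17747573 on the plus strand and is the opposite arm of the hairpin that gives miR-466i-5p. A search for 8 alternating bases (UGUGUGUG, GUGUGUGU, ACACACAC or CACACACA, overlapping matches allowed, along the mature RNA) found them in 6 of the 8, all but miR-466j and miR-467h. Of all 1679 names in the table with a matched mature sequence, 13 (0.774%) held such a run. A match describes the letters and is not a sign of binding.

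Depth differed between the groups and bears on every low count below. Library totals ran from 2.76 to 11.1 M counts with Empty_Vector, 5.30 to 8.06 M with shRNA, 1.18 to 2.10 M with shRNA_2bp and 0.832 to 2.50 M with shRNA_5bp, so every shRNA_2bp and shRNA_5bp library was shallower than every Empty_Vector and shRNA library. Between 19 and 34 of the 49 distinct members had a count in a given library. The neuronal label held, in that all 8 neuron-enriched miRNAs listed were tested and their summed level was at least 319374 CPM in every library. CPM here means counts per 1 M of a library total after TMM scaling, which trims the miRNAs that differ most before it equalises libraries. Of 13 embryonic stem cell miRNAs (the miR-290 to miR-295 and miR-302 cluster with miR-367), 7 had 0 counts in every library and the others summed to 14, 14, 4 and 6 counts in Empty_Vector, shRNA, shRNA_2bp and shRNA_5bp.

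The family was scarce in these neurons and its counts were concentrated in a few 5p arms. The 49 distinct members summed to 5225 counts over 16 libraries. MiR-669c-5p had 1859 of them, miR-466i-5p 963, the inseparable pair miR-467a-5p and miR-467b-5p 854, and miR-467c-5p 210. Of the 49, 13 had at least 50 counts over all libraries, 15 had 10 to 49 and 21 had fewer than 10. Only the 4 distinct members just named (5 names) passed the filter on low counts, which asked for about 3.80 CPM in at least 4 libraries, and only they were tested among the 483 tested miRNAs. All 4 are 5p arms. MiR-669c-5p, miR-466i-5p and miR-467a/b-5p reached that level in 16 of 16 libraries and miR-467c-5p in 4 of 16. MiR-466i-5p is the only tested member whose hairpin is outside Sfmbt2.

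**Figure D1:**
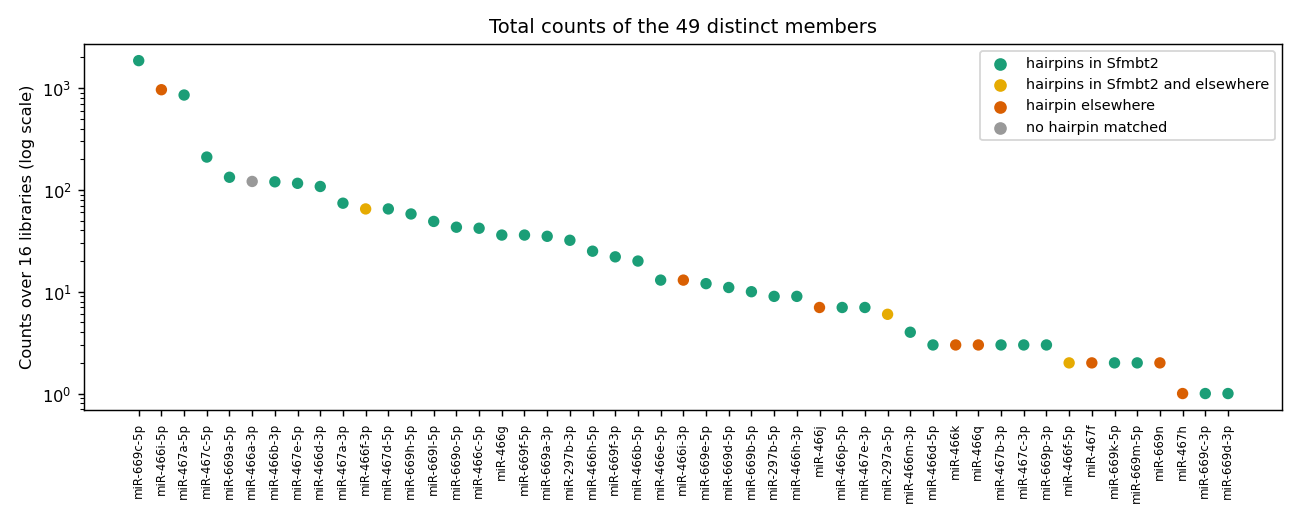
Counts summed over 16 libraries (vertical axis, log scale) of the 49 distinct members in order, coloured by where their hairpins lie. MiR-669c-5p (1859), miR-466i-5p (963) and miR-467a-5p (854) stand above the rest, and miR-466i-5p is the one of these whose hairpin is outside Sfmbt2.

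The measured level of miR-466i-5p was several times higher in the libraries with either mutated hairpin, and none of the other 3 tested members passed the test in any comparison. Its level was 6.99, 6.24, 10.4 and 5.32 CPM in the 4 Empty_Vector libraries and 7.95, 8.77, 6.49 and 11.1 CPM in the 4 shRNA libraries. It was 40.1, 68.8, 39.0 and 36.8 CPM in the shRNA_2bp libraries and 59.9, 24.5, 52.9 and 51.7 CPM in the shRNA_5bp libraries. Every library with a mutated hairpin was above every library of the other groups, while Empty_Vector overlapped shRNA and shRNA_2bp overlapped shRNA_5bp. How many of all tested miRNAs separate in this way is not given here. Against Empty_Vector, 33.3% of them rose with shRNA_2bp and 31.5% with shRNA_5bp, so separation by itself may be common.

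The group means of miR-466i-5p were 7.23 ± 2.2, 8.57 ± 1.92, 46.2 ± 15.1 and 47.3 ± 15.6 CPM (SD, n = 4) in Empty_Vector, shRNA, shRNA_2bp and shRNA_5bp. Against Empty_Vector it rose by 2.80 ± 0.279 on the log2 scale with shRNA_2bp (fitted value ± SE, edgeR quasi-likelihood adjusted p = 9.55e-09), a fold of 6.98 with a 95% interval of 4.67 to 10.4. With shRNA_5bp it rose by 2.75 ± 0.286 (edgeR adjusted p = 2.61e-08), a fold of 6.71 with an interval of 4.44 to 10.1. Among all 483 tested miRNAs ordered by fold change from the highest, it was number 2 with shRNA_2bp and number 23 with shRNA_5bp. With the unmutated shRNA the difference from Empty_Vector was 0.35 ± 0.285 (edgeR adjusted p = 0.382), with a log2 interval from -0.24 to 0.94, so the threshold was not passed and a change of up to 1.92-fold is within the interval.

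Between the hairpins, miR-466i-5p was higher with shRNA_2bp than with shRNA by 2.45 ± 0.266 on the log2 scale (edgeR adjusted p = 4.04e-08) and higher with shRNA_5bp than with shRNA by 2.40 ± 0.274 (edgeR adjusted p = 1.67e-07). These comparisons use the same shRNA_2bp and shRNA_5bp libraries as those above and are not separate support for them. The difference between shRNA_5bp and shRNA_2bp was -0.06 ± 0.262 (edgeR adjusted p = 0.859), with a log2 interval from -0.60 to 0.49.

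**Figure D2:**
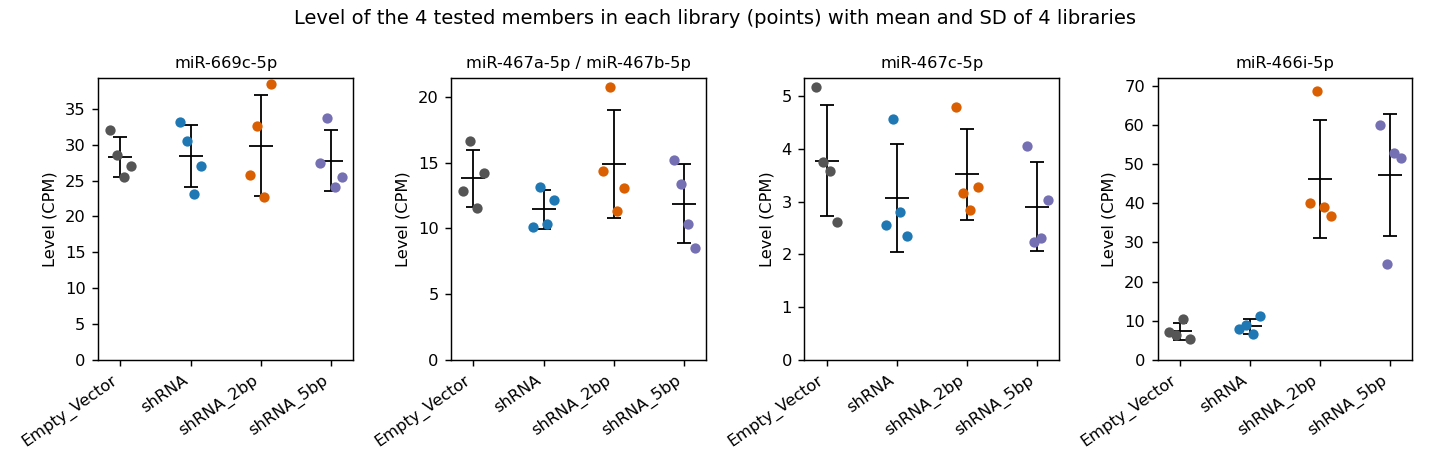
Level in CPM (vertical axes from 0, each panel its own scale) of the 4 tested members in each of 16 libraries, with the mean and SD of 4 libraries per group. For miR-466i-5p the 8 libraries with a mutated hairpin lie between 24.5 and 68.8 CPM and the other 8 between 5.32 and 11.1, while the groups overlap for the other 3 members.

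Depth moved with these groups, so the raw counts are given too. MiR-466i-5p had 31, 60, 26 and 55 counts in the Empty_Vector libraries, 62, 46, 37 and 71 with shRNA, 67, 152, 55 and 45 with shRNA_2bp and 59, 66, 46 and 85 with shRNA_5bp. Its raw count ran from 26 to 152 while library totals spanned 0.832 to 11.1 M, and the group sums were 172, 216, 319 and 256. Within groups, its count went partly with depth. With shRNA_2bp it rose at each step, from 45 at 1.18 M to 152 at 2.10 M. With Empty_Vector it was 26 at 2.76 M, 60 at 10.9 M and 55 at 11.1 M. With shRNA and shRNA_5bp the highest count was not in the deepest library. Between groups, the raw counts of miR-669c-5p were lower where libraries were shallower. They went from 142, 275, 64 and 279 with Empty_Vector to 27, 91, 21 and 42 with shRNA_5bp. With every library thinned to the smallest total, the log2 fold change of miR-466i-5p was 2.83 with shRNA_2bp and 2.80 with shRNA_5bp against Empty_Vector. Random thinning keeps the share of each miRNA in its library, so it cannot test for an effect that went along with depth. The libraries nearest in depth across the gap were Empty_Vector replicate 3, at 2.76 M counts and 10.4 CPM, and shRNA_5bp replicate 2, at 2.50 M counts and 24.5 CPM. Any part of how the libraries were made that differed along with depth cannot be told apart from the group, so these counts do not show whether the difference arose in the cells or in the libraries.

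The count of miR-466i-5p over that of miR-669c-5p was 0.218, 0.218, 0.406 and 0.197 in the Empty_Vector libraries and 0.239, 0.288, 0.280 and 0.410 with shRNA. It was 1.56, 2.11, 1.72 and 0.957 with shRNA_2bp and 2.19, 0.725, 2.19 and 2.02 with shRNA_5bp. The highest ratio without a mutated hairpin was 0.410 and the lowest with one was 0.725, so the groups did not overlap. Within groups, the order of the ratio by depth was mixed. It was highest in the shallowest Empty_Vector library (0.406 at 2.76 M counts). It was lowest in the deepest shRNA library (0.239 at 8.06 M) and in the deepest shRNA_5bp library (0.725 at 2.50 M). With shRNA_2bp it was highest in the deepest library (2.11 at 2.10 M) and lowest in the shallowest (0.957 at 1.18 M). The part of depth in the ratio was not tested. These ratios are a description, since the pair was chosen with their levels known.

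**Figure D3:**
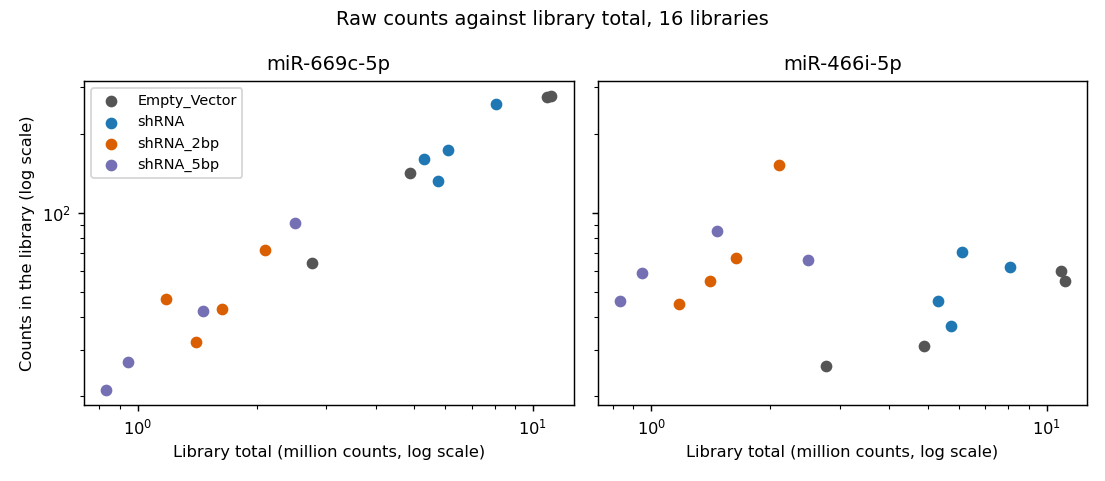
Raw counts of miR-669c-5p (left) and miR-466i-5p (right) against the library total in M counts, both axes on a log scale, 1 point per library, coloured by group. Counts of miR-669c-5p go up with the total from 21 to 279, whereas those of miR-466i-5p in the shallow shRNA_2bp and shRNA_5bp libraries (45 to 152) are as high as in the deep ones (26 to 71).

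The other arm and the other outlying hairpins were too scarce to compare. MiR-466i-3p, printed above, had 3, 5, 3 and 2 counts in the Empty_Vector, shRNA, shRNA_2bp and shRNA_5bp groups. For this arm that is 0.101, 0.198, 0.475 and 0.349 per 1 M counts of each group's total. The 8 distinct members with hairpins outside Sfmbt2 only, among them miR-466j, miR-466k, miR-466q, miR-467f, miR-467h and miR-669n, had 10, 6, 8 and 7 counts per group once miR-466i-5p was set aside. Per 1 M of the library total, these were means of 0.379, 0.225, 1.29 and 1.08, with at most 5 counts in any library. None of them was tested, for lack of counts.

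MiR-669c-5p, the most abundant member and the product of a single hairpin in the Sfmbt2 intron, did not pass the test in any comparison. Its level was 32.0, 28.6, 25.5 and 27.0 CPM with Empty_Vector, 33.2, 30.5, 23.1 and 27.0 with shRNA, 25.8, 32.6, 22.7 and 38.5 with shRNA_2bp and 27.4, 33.8, 24.2 and 25.5 with shRNA_5bp. All 4 groups overlapped, with means of 28.3 ± 2.79, 28.5 ± 4.36, 29.9 ± 7.06 and 27.7 ± 4.26 CPM (SD, n = 4). The log2 differences from Empty_Vector were 0.01 ± 0.148 with shRNA, 0.07 ± 0.169 with shRNA_2bp and 0.01 ± 0.173 with shRNA_5bp (edgeR adjusted p = 0.979, 0.725 and 0.9746). The 95% intervals reached from -0.30 to 0.31, from -0.28 to 0.42 and from -0.35 to 0.36, which leave out any change as large as that of miR-466i-5p.

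MiR-467a-5p and miR-467b-5p had the same counts in every library and cannot be separated. Mir467a has 10 hairpins in the intron and Mir467b 1. Their level was 12.9, 16.6, 11.6 and 14.2 CPM with Empty_Vector, 10.1, 13.2, 10.3 and 12.2 with shRNA, 14.4, 20.8, 11.4 and 13.1 with shRNA_2bp and 15.2, 13.4, 10.4 and 8.51 with shRNA_5bp. All groups overlapped, and the log2 differences from Empty_Vector were -0.31 ± 0.184, 0.12 ± 0.211 and -0.25 ± 0.227 (edgeR adjusted p = 0.209, 0.632 and 0.349). Against shRNA, the difference with shRNA_2bp was 0.43 ± 0.214 and did not pass either (edgeR adjusted p = 0.0828).

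MiR-467c-5p, from a single hairpin near the start of the cluster, was close to the lower limit of the test. It had 23, 36, 9 and 27 counts with Empty_Vector, 20, 24, 16 and 15 with shRNA, 8, 7, 4 and 4 with shRNA_2bp and 4, 6, 2 and 5 with shRNA_5bp. As levels these were means of 3.78, 3.07, 3.52 and 2.91 CPM with overlapping libraries. The log2 differences from Empty_Vector were -0.28 ± 0.296, -0.05 ± 0.385 and -0.39 ± 0.416 (edgeR adjusted p = 0.522, 0.920 and 0.425). The widest interval, with shRNA_5bp, ran from -1.25 to 0.46, so a fall to 0.421 of the Empty_Vector level is within it.

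**Figure D4:**
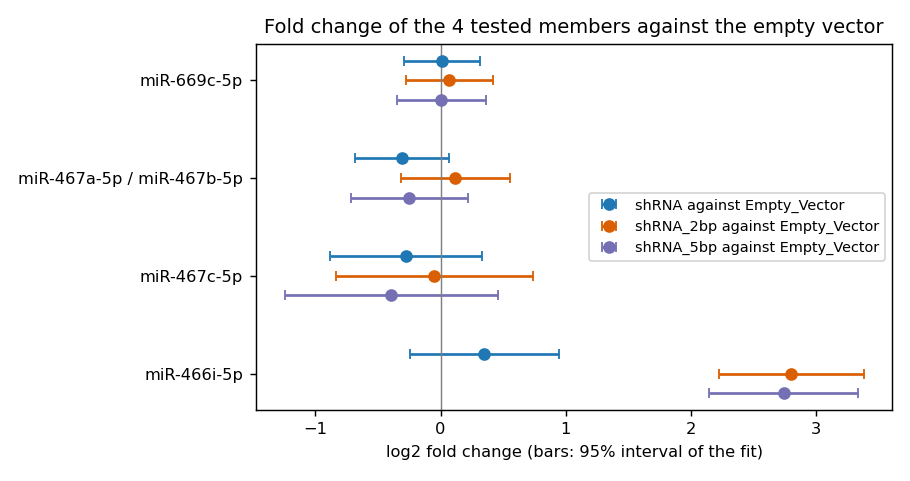
Fitted log2 fold change against Empty_Vector (horizontal axis, points) with its 95% interval (bars) for the 4 tested members in the 3 hairpin groups. The intervals of miR-466i-5p with shRNA_2bp (2.22 to 3.38) and shRNA_5bp (2.15 to 3.34) lie clear of 0, and all others drawn cross it.

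Counted over the family, 1 of 4 tested members rose and 0 fell with shRNA_2bp, and the same with shRNA_5bp, against Empty_Vector. Over all tested miRNAs, 33.3% rose and 32.3% fell with shRNA_2bp, and 31.5% rose and 26.7% fell with shRNA_5bp. With shRNA, 0 of 4 rose and 0 fell, where 19.7% of all tested miRNAs rose and 15.1% fell. No member had an unadjusted edgeR p below 0.05 in that comparison (0 of 4), and DESeq2 called 0. Against shRNA, 1 of 4 rose and 0 fell with shRNA_2bp (31.1% and 33.5% of all tested) and with shRNA_5bp (28.4% and 24.6%). Between shRNA_5bp and shRNA_2bp, 0 of 4 rose or fell, where 36.9% of all tested miRNAs were higher with shRNA_5bp and 22.8% lower. Neither edgeR's unadjusted p (0 of 4) nor DESeq2 (0) called a member there. With 4 tested members, 1 call is close to the background share. Scaled by library size alone, the calls over all miRNAs against Empty_Vector leaned further upward, at 149 higher and 44 lower with shRNA (95 and 73 with TMM), 206 and 127 with shRNA_2bp (161 and 156) and 216 and 81 with shRNA_5bp (152 and 129), and those of the members stayed as given.

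The median log2 fold change of the 4 tested members against Empty_Vector was -0.13 for shRNA, 0.10 for shRNA_2bp and -0.12 for shRNA_5bp, beside 0.04, 0.01 and 0.06 over all tested miRNAs. With no filter, all 49 distinct members could be fitted. The count of members that rose was then 0, 1 and 1 and the count that fell 0 in the 3 comparisons, with 0, 1 and 3 members at an unadjusted edgeR p below 0.05. Over all 1367 miRNAs fitted that way, 71 rose and 74 fell with shRNA, 123 rose and 199 fell with shRNA_2bp, and 118 rose and 191 fell with shRNA_5bp.

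The scarcer members of the family that come next in level were seen in most libraries at a few reads each. MiR-466a-3p and miR-466e-3p (identical counts) had 13, 23, 2 and 9 counts with Empty_Vector, 10, 8, 13 and 10 with shRNA, 2, 5, 4 and 7 with shRNA_2bp and 2, 7, 4 and 2 with shRNA_5bp. MiR-466b-3p, miR-466c-3p and miR-466p-3p differed from that pair by 1 count in 1 shRNA library, so these 5 names are in effect 1 measurement, although they stand as 2 of the 49 members. Their level was 1.75 ± 1.08, 1.66 ± 0.430, 3.01 ± 1.94 and 2.61 ± 1.44 CPM for the miR-466a-3p pair, with overlapping libraries.

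MiR-466d-3p had 10, 10, 3 and 14 counts with Empty_Vector, 7, 10, 15 and 8 with shRNA, 7, 2, 1 and 4 with shRNA_2bp and 5, 7, 2 and 3 with shRNA_5bp. MiR-467e-5p had 7, 9, 4 and 29 counts with Empty_Vector, 11, 3, 12 and 9 with shRNA, 2, 5, 3 and 3 with shRNA_2bp and 3, 10, 2 and 4 with shRNA_5bp. The mean level of miR-467e-5p was 1.73 ± 0.779 CPM with Empty_Vector and 2.87 ± 0.647 CPM with shRNA_5bp, and the libraries overlapped. None of these members was tested.

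MiR-669a-5p and miR-669p-5p (identical counts, 12 and 2 hairpins) had 11, 31, 3 and 24 counts with Empty_Vector, 6, 11, 7 and 16 with shRNA, 1, 3, 3 and 2 with shRNA_2bp and 4, 8, 1 and 2 with shRNA_5bp. MiR-467a-3p and miR-467d-3p (identical counts) had 15, 7, 3 and 7 counts with Empty_Vector, 8, 8, 2 and 2 with shRNA, 4, 7, 1 and 3 with shRNA_2bp and 1, 5, 1 and 0 with shRNA_5bp. Hairpin number and count did not go together in a single direction. MiR-669c-5p, from 1 hairpin, had 1859 counts beside 133 for the miR-669a-5p pair. MiR-467a-5p, with 10 hairpins, had 854 counts beside 210 for miR-467c-5p, with 1. How reads shared between hairpins were counted is not given, so such counts may not be comparable.

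The miR-297 names were the scarcest. Their 3 distinct members summed to 47 counts, of which miR-297b-3p, shared with miR-297a-3p and miR-297c-3p, had 32, miR-297b-5p 9 and miR-297a-5p 6. Of the other distinct members, those with 50 counts or more that are not yet named were miR-467d-5p and miR-466f-3p with 65 counts each and miR-669h-5p with 58. The rest had at most 49 counts, the highest being miR-669l-5p.

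By arm, the 25 distinct 5p members summed to 57.8 ± 2.65, 60.0 ± 6.77, 110 ± 26.6 and 111 ± 15.4 counts per 1 M of the unscaled library total in Empty_Vector, shRNA, shRNA_2bp and shRNA_5bp. Without miR-466i-5p, the other 24 summed to 51.2 ± 3.53, 51.4 ± 5.30, 62.4 ± 12.9 and 60.4 ± 8.29. The 17 distinct 3p members summed to 8.06 ± 4.08, 9.0 ± 1.65, 14.9 ± 5.19 and 14.2 ± 3.56. The 5p sum was the larger in every group.

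The summed family was higher with both mutated hairpins, mostly through miR-466i-5p. All 49 distinct members summed to 66.7 ± 6.87, 69.5 ± 6.38, 126 ± 30.2 and 126 ± 17.0 counts per 1 M of the library total (SD, n = 4), and the libraries with a mutated hairpin, at 96.7 to 166, did not overlap the others, at 61.0 to 76.2. The other 48 summed to 60.2 ± 7.52, 60.8 ± 5.13, 78.7 ± 18.2 and 75.7 ± 10.03, with overlapping libraries. The share of miR-128-3p, the most abundant miRNA, also differed between the groups, at 38.1 to 39.7% of counts with Empty_Vector, 31.6 to 34.1% with shRNA and 23.9 to 28.1% with the mutated hairpins. Per 1 M counts other than miR-128-3p, the 48 members summed to 98.2 ± 12.1, 90.9 ± 7.08, 104 ± 23.4 and 102 ± 13.97. No test was made of these sums.

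**Figure D5:**
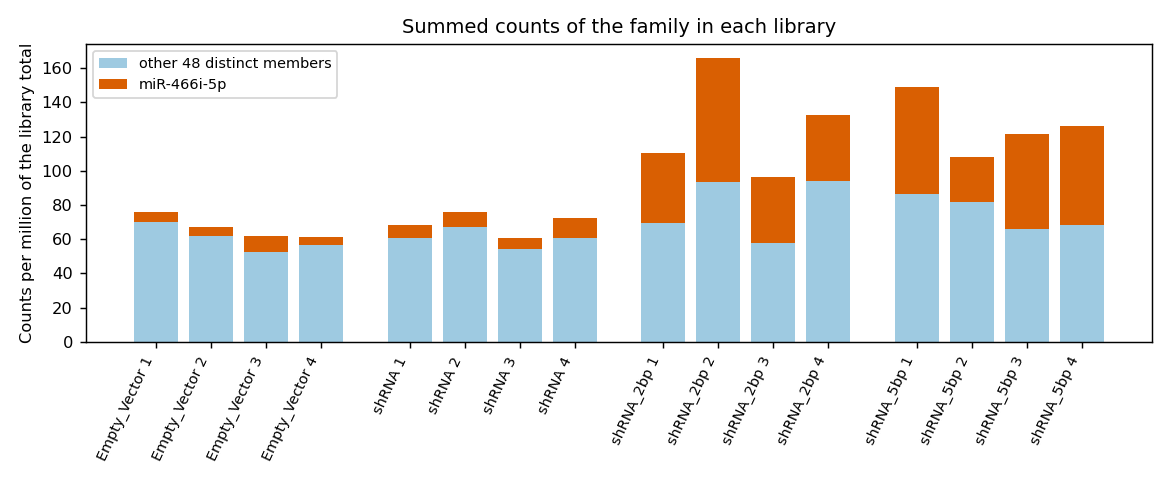
Summed counts of the family per 1 M of the unscaled library total (vertical axis from 0) in each of 16 libraries, split into miR-466i-5p and the other 48 distinct members. With a mutated hairpin the whole bar is 96.7 to 166 against 61.0 to 76.2 in the other groups, while the part without miR-466i-5p overlaps (52.5 to 69.9 with Empty_Vector and 57.6 to 94.3 with shRNA_2bp).

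By subfamily, the miR-669 sum was 31.6 ± 3.76, 34.2 ± 5.17, 38.6 ± 9.0 and 37.5 ± 5.25 counts per 1 M of the library total, and the miR-467 sum was 19.9 ± 1.75, 17.8 ± 2.41, 25.3 ± 7.08 and 21.4 ± 5.10. The miR-466 sum was 14.6 ± 3.04, 16.9 ± 2.12, 61.7 ± 17.9 and 66.3 ± 19.1. Without miR-466i-5p, the miR-466 sum was 8.03 ± 2.2, 8.25 ± 1.61, 14.04 ± 3.88 and 15.7 ± 3.85. Its libraries ran from 5.84 to 11.03 with Empty_Vector and from 6.45 to 9.93 with shRNA. They ran from 10.37 to 18.69 with shRNA_2bp and from 12.42 to 21.14 with shRNA_5bp. On this unscaled total, the shRNA_5bp libraries overlapped neither Empty_Vector nor shRNA, while those of shRNA_2bp overlapped Empty_Vector but not shRNA. The TMM factors were 0.907 in Empty_Vector replicate 1 and 1.08 in shRNA_5bp replicate 2. With them applied, the Empty_Vector and shRNA_5bp libraries overlapped, so that separation depends on the scaling. These differences were not tested. That remainder rests on 226, 203, 88 and 84 counts per group. It holds both miR-466a-3p and miR-466b-3p, which are in effect 1 measurement. MiR-466b-3p makes up 47, 40, 18 and 15 of these counts, and leaving it out changes which groups overlap.

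Sequence repeats of the same kind also occur in miRNAs outside the family. Of the names with a matched mature sequence, 7 outside the family hold 8 alternating bases, and their seeds differ from those printed above. The 4 printed here show the same repeats in another setting.

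miR-574-5p: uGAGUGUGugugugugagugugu

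miR-1187: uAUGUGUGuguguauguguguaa

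miR-3082-5p: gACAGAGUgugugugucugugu

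miR-672-5p: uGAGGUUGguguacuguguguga

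Only 1 of the 7 was tested. MiR-672-5p rose in all 3 comparisons with Empty_Vector, by 0.92 ± 0.098 with shRNA, 0.88 ± 0.102 with shRNA_2bp and 0.94 ± 0.103 with shRNA_5bp on the log2 scale (edgeR adjusted p = 1.39e-08, 1.34e-08 and 5.72e-09). It passed with the unmutated hairpin too, where miR-466i-5p did not, and the difference between these miRNAs was not tested. MiR-574-5p had 53, 62, 16 and 10 counts in Empty_Vector, shRNA, shRNA_2bp and shRNA_5bp and was not tested. MiR-1187 had 4, 2, 2 and 4 counts and miR-3082-5p 3, 0, 2 and 2. The other arm of the miR-574 hairpin, miR-574-3p, was tested and did not pass against Empty_Vector, at 0.57 ± 0.252 with shRNA, -0.48 ± 0.375 with shRNA_2bp and -0.42 ± 0.380 with shRNA_5bp (edgeR adjusted p = 0.0801, 0.263 and 0.348). Against shRNA it fell by 1.05 ± 0.356 with shRNA_2bp and by 0.99 ± 0.360 with shRNA_5bp on the log2 scale (edgeR adjusted p = 0.0113 and 0.0221). The raw counts of miR-574-5p were lower in the shallow groups, whereas those of miR-466i-5p were not.

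Lists of miRNAs taken as markers of other cells moved with the groups as well. Over all tested miRNAs, 19.7% rose and 15.1% fell with shRNA against Empty_Vector. These shares were 33.3% and 32.3% with shRNA_2bp, and 31.5% and 26.7% with shRNA_5bp. With so few miRNAs per list, some of the counts that follow are close to those shares. Of 6 tested miRNAs of vessels and fibroblasts, 5 rose with shRNA_2bp and 4 with shRNA_5bp against Empty_Vector, and 0 with shRNA. All 7 listed summed to 723 to 824 CPM with Empty_Vector, 685 to 785 with shRNA, 1207 to 1452 with shRNA_2bp and 1141 to 1363 with shRNA_5bp. Of 4 tested miRNAs of the list taken as astroglial, 1 rose with shRNA, 4 with shRNA_2bp and 2 with shRNA_5bp. That list holds miR-21a-5p, miR-22-3p, miR-22-5p, miR-143-3p and miR-449a-5p. Whether these mark astroglia in these cultures was not tested. All 5 listed summed to 1883 to 2088, 2085 to 2283, 3632 to 4052 and 2104 to 2552 CPM in the groups in that order. Of the microglia and leukocyte list, miR-223-3p and miR-142a-3p had 0 counts in every library, and 2, 1 and 1 of 2 tested miRNAs rose. MiR-143-3p stands in both the vessel and the astroglial list. Of the 8 neuronal miRNAs, 3 rose and 2 fell with shRNA, 3 rose and 4 fell with shRNA_2bp, and 5 rose and 2 fell with shRNA_5bp. They summed to 510906 to 545610 CPM with Empty_Vector, 400461 to 452552 with shRNA, 339605 to 369819 with shRNA_2bp and 319374 to 374824 with shRNA_5bp. Most of this sum is 1 of the 8, miR-128-3p. It held 38.1 to 39.7% of counts with Empty_Vector and 23.9 to 28.1% with the mutated hairpins. The lower sum is therefore mainly that of miR-128-3p and does not describe the neuronal list as a whole. Their part in the level of miR-466i-5p was not tested, and in bulk cultures a change in the number of cells of a type cannot be told apart from a change in RNA per cell.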

How the data were processed

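The deposited table holds raw counts of reads per named mature mouse miRNA for 16 libraries. Per the labels' protocols, libraries were made with an NEBNext small RNA kit, PCR and size selection. The submitters' processing notes name bcl2fastq 2.20.0.422, Trim Galore 0.6.0, cutadapt 1.15, Bowtie 1.1.1, edgeR and GRCm38.p6, without steps. How reads that match several miRNAs were counted is not given in the sources used here.

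All libraries were fitted together in edgeR 4.0.16 (limma 3.58.1, R 4.3.3) as 4 group coefficients (12 residual degrees of freedom), with TMM scaling, filterByExpr (minimum count 10) and the robust quasi-likelihood F test. P-values were adjusted by Benjamini-Hochberg over 483 miRNAs at a threshold of 0.05. The script was tested on simulated data. Intervals cover 95%; levels of untested members used the same scaled totals.

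The members and lists were chosen with earlier results of these data known. Per-library values are given for the 10 members of highest mean CPM and for called members (up to 3 each way, mean of at least 3 CPM). Markers of oligodendrocytes (1 of 3 tested, 0 called) and erythroid cells (1 of 3 tested, up with shRNA_2bp only) were listed too. Other members were named after their counts were seen. Positions came from RefSeq GRCm38.p6 and introns from GENCODE M21 on GRCm38.

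Replicate numbers are shared between groups. Correlations of same-numbered libraries, from the 361 miRNAs that averaged 10 CPM or more, were all above 0.1, the level taken as pairing, only between shRNA_2bp and shRNA (0.166 to 0.198). They were 0.089 to 0.188 between shRNA and Empty_Vector and 0.041 to 0.136 between shRNA_2bp and Empty_Vector. Alternatives were other scalings, filters, DESeq2 1.42.0, thinning, a replicate block and leaving out each library.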

Additional observations from a re-analysis of the deposited data

Results flagged for a closer look

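Among 88 groups of 4 libraries examined, 5 held a library far from the other 3, and chance alone gives about 1 in 20. The level of miR-466i-5p in shRNA_2bp replicate 2 was 68.8 CPM, where the other 3 libraries of that group were 36.8 to 40.1. The ratio of miR-466i-5p to miR-669c-5p counts was 0.406 in Empty_Vector replicate 3, with the others at 0.197 to 0.218. The same ratio was 0.725 in shRNA_5bp replicate 2, with the others at 2.02 to 2.19. These last libraries are the shallowest of Empty_Vector (2.76 M counts) and the deepest of shRNA_5bp (2.50 M), and the part of depth in their ratios was not tested. The summed miR-297 members were 1.24 counts per 1 M in shRNA replicate 1, with the others at 0.328 to 0.377. The summed miR-669 members were 26.5 counts per 1 M in shRNA replicate 3, with the others at 36.1 to 37.7.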

How the results depend on the processing

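The counts of called members were the same in all 25 alternatives of each of the 6 comparisons. MiR-466i-5p kept its direction and stayed past the threshold in them, at 2.53 to 2.99 with shRNA_2bp and 2.50 to 2.99 with shRNA_5bp against Empty_Vector (highest edgeR adjusted p 1.73e-06 and 3.56e-06) and at 2.09 to 2.61 and 2.06 to 2.67 against shRNA. With a replicate block it was 2.82, 2.74, 2.46 and 2.39, and the block changed no call of a member.

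Against Empty_Vector, the other 3 tested members passed the threshold in 0 of 220 alternatives (lowest adjusted p 0.136) and changed sign in 36. For miR-669c-5p with shRNA these were -0.022 (RLE), -0.019 (no filter), -0.017 (mean of 3 CPM), -0.041 (identical names collapsed), -0.00091 (thinned), -0.022 (DESeq2) and -0.055 to 0.161 without 1 library. With shRNA_2bp they were -0.035 (no filter), -0.0035 (collapsed) and -0.118 to 0.147 without 1 library. With shRNA_5bp they were -0.057 (RLE), -0.232 (no filter), -0.030 (3 CPM), -0.086 (8 libraries), -0.046 (collapsed), -0.055 (DESeq2) and -0.182 to 0.064 without 1 library. With shRNA_2bp, miR-467c-5p was 0.133 (library size alone; -0.298 to 0.134 without 1 library) and miR-467a-5p -0.114 (thinned; -0.106 to 0.258). Between shRNA_5bp and shRNA_2bp, miR-466i-5p was 0.0034 (library size; -0.270 to 0.235). The causes were not tested. Scaling by library size only gave all-miRNA medians against Empty_Vector of 0.18, 0.19 and 0.30.

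Medians of the members moved to 0.50 with shRNA_2bp (no filter, 49 members) and to 0.13 (library size) and 0.36 (DESeq2, 26 members) with shRNA_5bp. Against shRNA, DESeq2 gave 0.81 (26 members) and 0.49 (22). Leaving out 1 library gave -0.185 to 0.075 for the median of shRNA_5bp against shRNA. Summed shares in Empty_Vector, shRNA, shRNA_2bp and shRNA_5bp were 89.1, 89.8, 157 and 154 counts per 1 M with every name counted, and 109, 104, 168 and 171 of the total without miR-128-3p. Without miR-466i-5p, an alternative chosen after seeing the data, the last 3 were 60.8, 78.7 and 75.7.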
